A study of Homo sapiens with 3 samples.

Results

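Heparan sulfate genes were examined in primitive neural progenitor cells (pNPCs), a self-renewing early neural stage, made from H1, a human embryonic stem cell line in wide use. The 38 genes, taken by symbol from a list of core proteins, chain-building enzymes and chain-editing enzymes, were all found among the 62754 genes of each library, with 1 row each. Polyadenylated RNA of 3 wild-type replicates was sequenced and there was no other group. All replicates were kept in the same medium, which held N2, B27 without retinoic acid, FGF2 (20 ng/ml), the GSK3 inhibitor CHIR99021 (3 µM), which activates WNT signalling, human leukemia inhibitory factor (10 ng/ml), the TGF-beta receptor inhibitor SB431542 (2 µM) and the ROCK inhibitor Y-27632 (10 µM), and were split with TrypLE every week. The 3 libraries come from 1 cell line, and the labels do not say whether they were separate cultures, so any p-value here reflects differences between these samples alone, and those may be technical.

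Heparan sulfate is a long sugar chain built on a few core proteins. Glypicans hang on the outer membrane by a lipid anchor, syndecans cross the membrane, and perlecan and agrin lie in the extracellular matrix. A linker is made first, EXT enzymes then extend the chain, NDST enzymes replace acetyl by sulfate groups, and an epimerase with 2-O-, 6-O- and 3-O-sulfotransferases finishes the pattern. FGF ligands bind their receptors together with 2-O- and 6-O-sulfated chains, while WNT ligands are held and presented by glypicans. The SULF enzymes remove 6-O-sulfate groups outside the cell, which is known to reduce FGF signalling and to release WNT ligands.

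Replicates 1, 2 and 3 summed to 34658454, 38400092 and 30038114 expected counts (RSEM's estimated reads per gene), and the 38 genes took 0.267%, 0.327% and 0.309% of them. Replicate 1 stood apart: the chi-square of counts per degree of freedom was 82.5 and 82.6 against replicates 2 and 3, and 19.4 between replicates 2 and 3. The labelled cell type was checked against markers. Neural progenitor markers were detected in 11 of 12 cases, led by VIM at 1912 ± 194.4 TPM and NES at 180.8 ± 21.07 TPM (mean ± SD, n = 3), with PAX6 below detection. Mesenchyme markers were detected in 9 of 9 cases, led by COL1A2 at 277.8 ± 102.6 TPM and PRRX1 at 206.3 ± 107.7 TPM, as were 9 of 9 neural crest markers, led by TWIST1 and TFAP2B, and 6 of 6 neuron markers, of which TUBB3 had 375.1 ± 89.35 TPM and STMN2 8.15 ± 5.60 TPM. None of the 5 endothelial and 6 microglial markers was detected, with C1QA and TYROBP at 0 counts in all libraries, and of 6 pluripotency markers only DPPA4 was detected. In bulk RNA, more RNA of a gene per cell cannot be told apart from more cells that carry it.

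A gene is called detected when it reached at least 1 TPM (a share of all transcripts, with reads divided by transcript length) in all 3 libraries. Of the 38 genes 32 were detected, beside 62.2% of protein-coding genes and 23.0% of all genes. The median gene of the list stood at 4.62 ± 0.23 log2(TPM + 1), and the median protein-coding gene at 2.86 ± 0.18. The 12 core protein genes held 57.9% ± 1.36 of the list's summed TPM and the 26 enzyme genes 42.1% ± 1.36 (SD, n = 3). By role, glypicans held 24.4%, syndecans 23.3%, chain polymerases 11.8%, secreted core proteins 10.1%, linker enzymes 8.25% and the SULF enzymes 7.25%. Of the sulfation steps, the epimerase and 2-O-sulfotransferase held 6.03%, the NDST genes 4.65%, the 6-O-sulfotransferases 2.81% and the 3-O-sulfotransferases 1.29%. These shares depend on length scaling: in CPM (counts scaled to the library total, with no length term) the NDST genes held 8.03% and the epimerase and 2-O-sulfotransferase 7.92%, above the SULF enzymes at 7.07% and linker enzymes at 4.31%. Of the 32 detected genes 21 had their lowest TPM in replicate 1, and so did 56% of all detected genes, so a gene named as lowest there follows the common case.

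**Figure D1:**
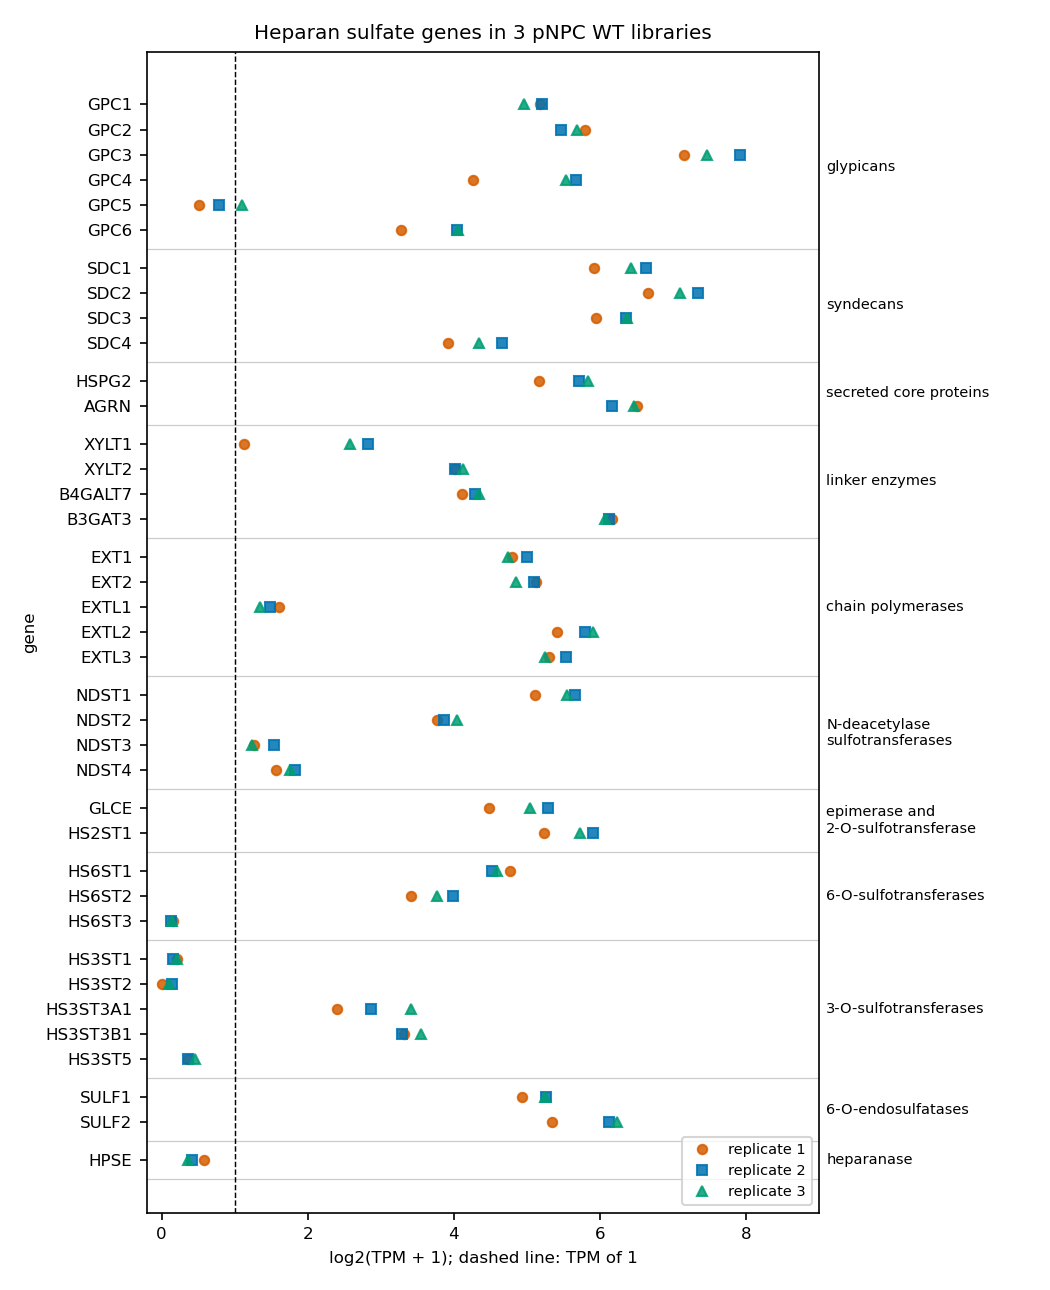
Level of each of the 38 genes on the log2(TPM + 1) axis, grouped by role, with 1 point per pNPC WT replicate and a dashed line at 1 TPM. GPC3 and SDC2 lie farthest right, and GPC5, HS6ST3, HS3ST1, HS3ST2, HS3ST5 and HPSE have points left of the line.

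**Figure D2:**
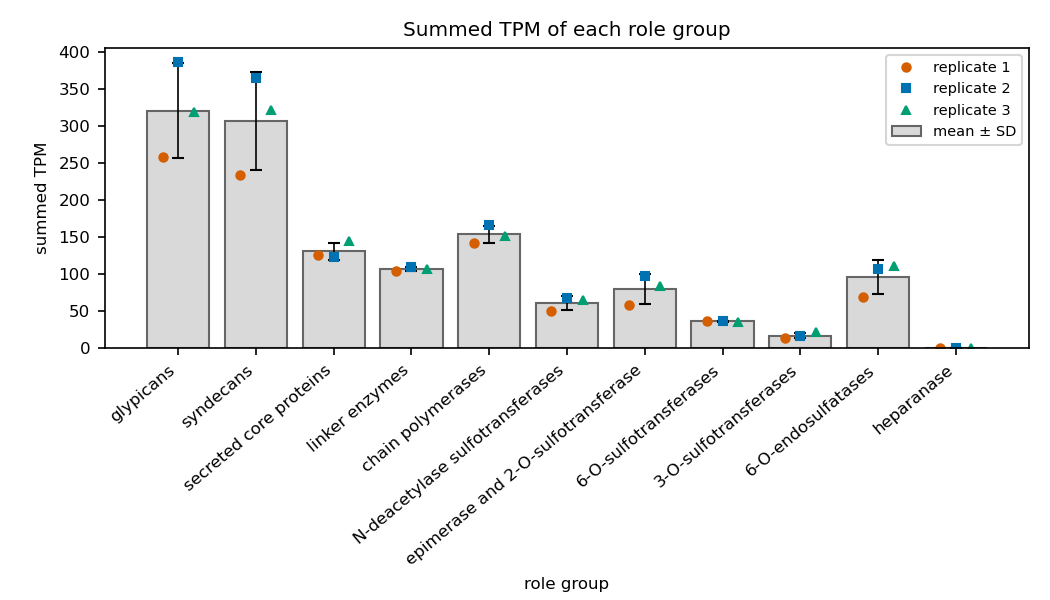
Summed TPM of each role group, with bars for the mean of 3 replicates, error bars for the SD and points for replicates. Glypicans and syndecans are the tallest bars, at 320.9 and 306.9 TPM, and heparanase is close to 0.

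Among glypicans, GPC3, which restrains hedgehog signalling and binds WNT ligands, was the highest gene of the whole list. GPC3 (ENSG00000147257.16, chromosome X, 133535745 to 133985594, GRCh38) had 140.7, 240.4 and 176.3 TPM in replicates 1, 2 and 3, from 5072, 9093 and 5364 counts. It lay at percentile 96.5 of protein-coding genes by mean TPM and made up 57.4% ± 4.23 of summed glypican TPM. GPC2, a glypican of developing neurons, had 54.36, 43.35 and 50.60 TPM, highest in replicate 1. GPC1, an FGF coreceptor, had 35.19, 35.86 and 30.02 TPM, within a narrow range. GPC4, a glypican of neural progenitors and later of astrocytes, had 18.12, 50.22 and 45.21 TPM. Its level in replicate 1 was thus 0.38 times the mean of the other libraries. GPC6, another astrocyte glypican, had 8.67, 15.57 and 15.72 TPM and was likewise lowest in replicate 1. GPC5 was not detected, with 0.43, 0.73 and 1.14 TPM in replicates 1, 2 and 3. Its 30, 33 and 62 counts give Poisson 95% intervals of 0.292 to 0.619, 0.501 to 1.02 and 0.875 to 1.46 TPM, which cover counting error only, as do all such limits here.

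Syndecans were all detected. SDC2 (ENSG00000169439.12), a syndecan common in mesenchymal cells, was the highest, with 99.90, 161.6 and 135.5 TPM in replicates 1, 2 and 3. SDC1, the typical syndecan of epithelia, had 59.60, 98.13 and 85.01 TPM. SDC3, the neural syndecan, had 60.60, 80.81 and 81.84 TPM. As in 56% of all detected genes, replicate 1 had the lowest TPM for each of these. SDC4, a syndecan of focal adhesions, was the lowest syndecan at 14.12, 24.17 and 19.25 TPM. Within the family the proportions varied little between libraries in TPM. SDC2 made up 42.7%, 44.3% and 42.1% of summed syndecan TPM in replicates 1, 2 and 3, and SDC4 6.03%, 6.63% and 5.99%. In CPM the part of SDC2 fell from replicate 1 to 3. It had 163.8, 163.8 and 119.2 CPM, of syndecan sums of 541.8, 667.8 and 583.6 CPM.

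The direction for SDC2 depended on the length that RSEM assigned to it. Its effective length, an average over isoforms weighted by their estimated share, was 2238 bases in replicate 1, 1497 in replicate 2 and 1305 in replicate 3. SDC2 had 163.8, 163.8 and 119.2 CPM, so replicate 1 was 1.16 times the mean of the others in CPM and 0.672 times in TPM. In matrix core proteins the length also moved. HSPG2, which encodes perlecan of basement membranes, had effective lengths of 4674, 7023 and 7225 bases, and replicate 1 was 0.46 times the mean of the others in CPM and 0.647 times in TPM. HSPG2 had 34.92, 51.59 and 56.36 TPM in replicates 1, 2 and 3. AGRN, which encodes agrin, the organiser of the neuromuscular synapse, had 90.42, 70.79 and 87.80 TPM and lay above HSPG2 in every library. Exons of HSPG2 share 2121 bases, 11.7% of their length in GENCODE release 29, with LDLRAD2 on the other strand. The labels do not say whether counting used strand, so reads within these shared bases cannot be told apart. Counts were whole numbers, within 0.005, in all libraries for 27 of the 38 genes, while 11, HSPG2 and AGRN among them, had fractions, which arise where RSEM divides a read between genes.

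Linker enzymes start every chain, for heparan and chondroitin sulfate alike. B3GAT3, which adds the closing glucuronic acid of the linker, was the highest of the 4, at 70.71, 69.11 and 66.28 TPM in replicates 1, 2 and 3. B4GALT7, which adds the first galactose, had 16.36, 18.49 and 19.24 TPM. The xylosyltransferase gene XYLT2, which starts the linker on the core protein, had 15.13, 15.24 and 16.42 TPM. These 3 genes varied little, with coefficients of variation of 3.27%, 8.29% and 4.59%. XYLT1, the paralog of XYLT2 (ENSG00000103489.12, chromosome 16, 17101769 to 17470960), had 1.18, 6.12 and 4.96 TPM, from 292, 1545 and 959 counts. XYLT1 was thus the most variable detected gene of the list, with a coefficient of variation of 63.2%, and stood in replicate 1 at 0.213 times the mean of the other libraries.

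The promoters of the XYLT paralogs, whose levels parted most between libraries, and those of HS2ST1 and HS3ST2, a high and a nearly silent sulfotransferase gene, are shown to set sequence beside level. Each covers 300 bases around the RefSeq start (GRCh38.p14), the last 50 of them after it, 5′ to 3′ on the gene's strand, with CG dinucleotides in capitals.
XYLT1, chr16:17470911-17471210, minus strand: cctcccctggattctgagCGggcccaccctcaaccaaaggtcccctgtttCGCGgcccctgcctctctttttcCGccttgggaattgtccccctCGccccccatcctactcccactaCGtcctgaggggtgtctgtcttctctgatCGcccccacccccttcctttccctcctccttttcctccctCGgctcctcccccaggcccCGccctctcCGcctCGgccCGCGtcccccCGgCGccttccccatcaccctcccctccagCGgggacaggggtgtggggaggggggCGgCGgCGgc
XYLT2, chr17:50345876-50346175, plus strand: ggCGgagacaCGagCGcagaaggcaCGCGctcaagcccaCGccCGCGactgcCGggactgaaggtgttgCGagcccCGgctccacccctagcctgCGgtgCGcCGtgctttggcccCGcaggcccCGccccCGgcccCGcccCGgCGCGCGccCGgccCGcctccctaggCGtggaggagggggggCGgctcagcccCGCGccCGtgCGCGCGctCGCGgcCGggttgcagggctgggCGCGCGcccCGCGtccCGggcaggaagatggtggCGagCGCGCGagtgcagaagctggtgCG
HS2ST1, chr1:86914385-86914684, plus strand: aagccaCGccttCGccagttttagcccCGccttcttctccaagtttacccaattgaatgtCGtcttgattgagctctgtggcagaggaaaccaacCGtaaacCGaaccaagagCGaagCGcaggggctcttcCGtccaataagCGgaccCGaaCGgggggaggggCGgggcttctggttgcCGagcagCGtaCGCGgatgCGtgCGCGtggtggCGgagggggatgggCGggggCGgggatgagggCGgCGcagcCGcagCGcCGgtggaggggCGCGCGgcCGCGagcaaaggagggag
HS3ST2, chr16:22813912-22814211, plus strand: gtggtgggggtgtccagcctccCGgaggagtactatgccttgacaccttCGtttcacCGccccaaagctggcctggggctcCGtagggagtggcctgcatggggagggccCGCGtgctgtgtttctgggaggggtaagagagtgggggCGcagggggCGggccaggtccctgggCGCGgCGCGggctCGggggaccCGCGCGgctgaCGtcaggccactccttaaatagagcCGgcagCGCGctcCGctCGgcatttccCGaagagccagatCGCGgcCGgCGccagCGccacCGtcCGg

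XYLT1 had 19 CG dinucleotides in this window and XYLT2 had 46, while HS2ST1 and HS3ST2 had 33 and 30. The sulfotransferase genes, shown for their very unlike levels, had like CG counts, while the XYLT paralogs had unlike ones. Whether the CG count bears on level was not tested. RefSeq promoters were matched for 32 of the 38 genes. Their median was 28 CG dinucleotides, with 28 for the 26 detected and 26 for the 6 undetected genes, beside 22 over 15842 protein-coding promoters. The motif GGGCGG, bound by SP and KLF factors, was searched on both strands and found in 24 of 32 windows, 75% beside 58.5% of all these promoters. The median share of G and C was also higher, 68.2% in the 32 windows beside 62.7%, and the motif share was not adjusted for it. TATAAA was found in 5 windows, 15.6% beside 9.63%. The TCF/LEF core motifs CTTTGAA and CTTTGAT, bound by the effectors of WNT signalling, were in 0 of 32 windows and in 5.48% of all promoters, which says only that these letters are not in these windows.

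Among chain polymerase genes the coefficient of variation ran between 10.1% for EXT1 and 17.6% for EXTL2, beside a median of 16.9% over the detected members. EXT1 had 26.67, 31.05 and 25.84 TPM and EXT2 had 33.84, 33.39 and 28.01 TPM in replicates 1, 2 and 3. Their products form the copolymerase complex. EXTL3, which adds the first N-acetylglucosamine and so commits a linker to heparan sulfate, had 38.48, 45.38 and 37.13 TPM. EXTL2, which can end a chain early by acting on a phosphorylated linker, had 41.45, 54.58 and 58.88 TPM and was the highest of the family by TPM in every library. The order turned without length scaling, where EXTL2 had 78.74, 92.49 and 91.70 CPM and EXTL3 had 161.3, 184.6 and 152.4 CPM. EXTL1, a polymerase-like gene, stood far lower at 2.06, 1.81 and 1.55 TPM.

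Genes of the sulfation steps differed widely in level. NDST1, the main N-deacetylase and N-sulfotransferase of most tissues, had 33.47, 49.77 and 46.07 TPM and made up 70.5% ± 2.87 of summed NDST TPM. NDST2, known for heparin of mast cells, had 12.67, 13.61 and 15.47 TPM. In GENCODE release 29, 82.9% of the exon bases of NDST2 lie also in a protein-coding gene on the same strand, so its level rests on how reads were split. NDST3 and NDST4 had means of 1.56 ± 0.307 and 2.30 ± 0.309 TPM, just above the detection limit. GLCE, the C5 epimerase, had 21.40, 38.07 and 31.86 TPM. HS2ST1, the only 2-O-sulfotransferase gene for heparan sulfate, had 36.83, 58.99 and 51.86 TPM and lay above GLCE in every library. The same-strand gene AC093155.3 shares 9.69% of the exon bases of HS2ST1. GLCE and HS2ST1, like 56% of all detected genes, had their lowest TPM in replicate 1.

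HS6ST1 had 26.21, 22.08 and 23.00 TPM and HS6ST2 had 9.71, 14.81 and 12.65 TPM in replicates 1, 2 and 3. Their products add the 6-O-sulfate groups that FGF receptor complexes use. HS6ST3 was nearly silent, at 0.11, 0.09 and 0.10 TPM from 23, 20 and 16 counts. Of the 3-O-sulfotransferase genes on the list, HS3ST3B1 had 9.02, 8.76 and 10.69 TPM and HS3ST3A1 had 4.29, 6.32 and 9.70 TPM. These paralogs have close to identical catalytic domains, and fractional counts in all 3 libraries show that reads were divided, so their split is uncertain. HS3ST1, the enzyme that makes the antithrombin site of anticoagulant chains, had a mean of 0.143 ± 0.0289 TPM, and HS3ST5 one of 0.313 ± 0.0493 TPM. HS3ST2, a 3-O-sulfotransferase of the brain, had 0, 5 and 3 counts. The count of 0 in replicate 1 allows up to 0.0568 TPM at a floor of 3 counts. The two-sided Poisson 95% intervals, a wider measure, were 0 to 0.0698, 0.031 to 0.223 and 0.0152 to 0.216 TPM in replicates 1, 2 and 3.

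The extracellular editors SULF1 and SULF2 were both detected. SULF2 (chromosome 20, 47657406 to 47786627) had 39.73, 68.84 and 74.42 TPM and SULF1 had 29.51, 37.44 and 36.90 TPM in replicates 1, 2 and 3. SULF2 was the higher in every library. HPSE, the heparanase that cuts chains, was not detected, with 0.50, 0.33 and 0.28 TPM from 32, 29 and 17 counts.

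Related genes were also set against each other within each library, as a difference of log2(TPM + 1), so that library effects shared by both genes drop out. In 14 of 16 such pairs the sign was the same in all 3 libraries. The pairs were chosen with earlier results of these data known, and some join genes of very unlike level. No like count was made for other pairs of genes, so this count describes these pairs only. NDST1 exceeded NDST2 by 1.55 ± 0.23 and GPC4 exceeded GPC6 by 1.36 ± 0.34, in 3 of 3 libraries each. In CPM these means were 3.33 and 0.87. The level of NDST2 also rests on how reads were split with the gene on the same strand. For XYLT1 minus XYLT2 the difference was -2.89, -1.19 and -1.55 in replicates 1, 2 and 3. Without length scaling XYLT1 had 8.43, 40.23 and 31.93 CPM and XYLT2 had 31.48, 29.92 and 32.39 CPM. On that scale XYLT1 was the higher in replicate 2. In log2(TPM + 1) the difference was -0.76 ± 0.30 for SULF1 minus SULF2 and 0.90 ± 0.41 for HS6ST1 minus HS6ST2. GLCE minus HS2ST1 (-0.69 ± 0.07) and SDC4 minus SDC2 (-2.73 ± 0.03) had the narrowest spreads among pairs of genes on this TPM scale. For SDC4 and SDC2 the narrow spread depended on length scaling. In CPM, SDC4 had 24.78, 38.62 and 30.53 and SDC2 163.8, 163.8 and 119.2 in replicates 1, 2 and 3. For each of the 14, flipping signs over 3 libraries gave p = 0.25 (exact permutation, two-sided, Benjamini-Hochberg adjusted over 16 pairs 0.286), and no smaller value is possible with n = 3, so none could pass 0.05. SDC1 minus SDC3 (0.10 ± 0.16) and summed glypicans minus summed syndecans (0.07 ± 0.07) changed sign between libraries (exact permutation p = 0.5, adjusted 0.5, n = 3).

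**Figure D3:**
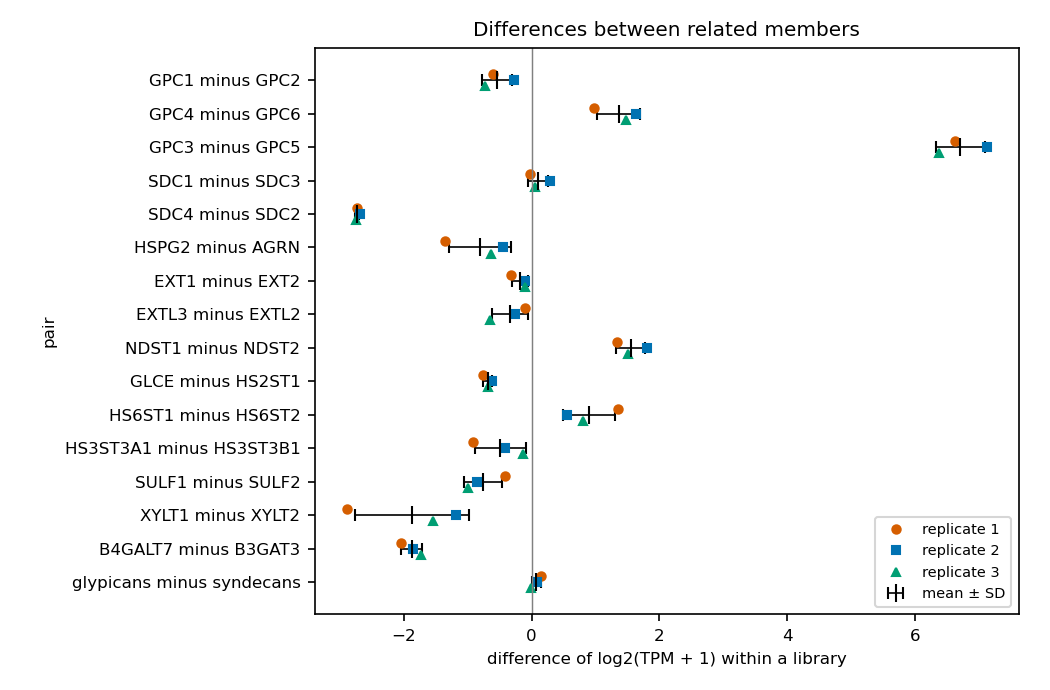
Difference of log2(TPM + 1), first gene minus second, for 16 pairs in each pNPC WT replicate (points), with mean and SD. GPC3 minus GPC5 is the widest at 6.71, and SDC1 minus SDC3 and glypicans minus syndecans lie across 0.

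Spread between replicates was tested in edgeR against genes of like abundance, over 17046 genes, of which 37 were members of the list. Of the members 1 was called, beside 1.59% of all genes tested, so the count of 1 in 37 is near the background. That gene was XYLT1 (adjusted p = 1.01e-04, edgeR residual deviance test with Benjamini-Hochberg adjustment), with log2 CPM of 3.10, 5.34 and 4.98 in replicates 1, 2 and 3. The call ended without replicate 1 (edgeR adjusted p = 1) and without replicate 2 (0.0611), and over the other 5 alternatives the adjusted p lay between 1.09e-04 and 0.0051. GPC4 did not pass, with an edgeR adjusted p of 0.0641 and log2 CPM of 5.99, 7.33 and 7.15, nor did HSPG2 (0.188), with 6.92, 7.95 and 8.08.

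The shares of the list lowest and highest in replicate 1 lay near the background. Of 37 genes, 18 had their lowest log2 CPM in replicate 1, 48.6% beside 41.1% of all genes tested, and 12 their highest, 32.4% beside 40.8%. The median of replicate 1 minus the average of replicates 2 and 3 was -0.23 log2 CPM for the list and -0.01 for all genes tested. A part of the list went the other way, among them AGRN (0.36), GPC2 (0.47), HS6ST1 (0.37), GPC1 (0.27), SDC2 (0.25) and the undetected HPSE (0.48). Libraries differed in a trend of counts on transcript length, and with that trend removed the list's median became 0.06. The most negative values were then those of XYLT1 (-1.32), GPC4 (-0.94), SULF2 (-0.71) and HSPG2 (-0.62). Other members stayed negative too, such as GPC3 (-0.60) and GLCE (-0.50). Of the mesenchyme markers, 7 of 9 had their lowest log2 CPM in replicate 1, their median was -0.74 there, and their summed TPM was 527.4, 1171 and 805.0 in replicates 1, 2 and 3. Neuron markers had a median of 0.63 in replicate 1, where 4 of 6 had their highest log2 CPM and 1 its lowest. Their summed TPM was 511.3, 339.2 and 345.7 in replicates 1, 2 and 3, of which TUBB3 alone gave 478.3, 323.8 and 323.4. No marker of either list was at 0, and the part of these cells in the result was not tested.

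**Figure D4:**
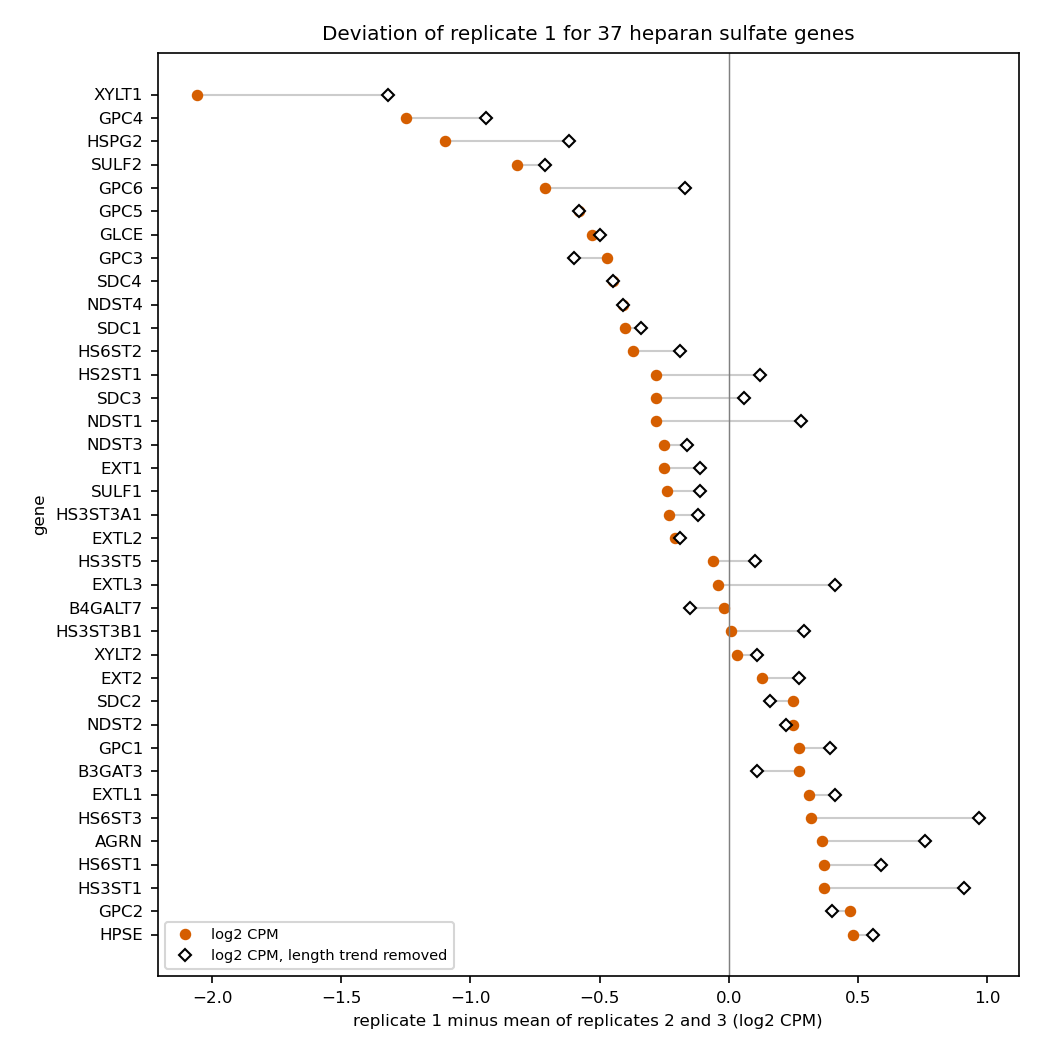
Replicate 1 minus the mean of replicates 2 and 3 in log2 CPM for the 37 members tested (filled circles), and the same with the length trend removed (open diamonds). XYLT1 lies farthest left at -2.06, and long-transcript genes such as HS6ST3 and HS3ST1 shift to the right.

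Other genes of the pathway were mostly detected, 24 of 27. Each count of detected genes here and below stands beside 62.2% of protein-coding genes. PAPSS1, which makes the sulfate donor used by all sulfotransferases, had 89.41 ± 15.30 TPM, SDCBP, which encodes the syndecan-binding protein syntenin, had 117.8 ± 17.18 TPM, and GIPC1, which encodes another cytoplasmic adaptor, had 64.97 ± 4.79 TPM. HS3ST6 had 0 counts in all libraries. HS3ST4, a 3-O-sulfotransferase gene outside the list of 38, averaged 7.26 ± 1.98 TPM and passed the detection limit in every library. Its mean lay between those of HS3ST3B1 (9.49 TPM) and HS3ST3A1 (6.77 TPM). The 1.29% share of 3-O-sulfotransferases given above does not include HS3ST4. NOTUM, which encodes an enzyme that inactivates WNT ligands, had 1.61, 5.65 and 1.99 TPM in replicates 1, 2 and 3. Among 26 of these genes tested, 0 were called for excess spread by edgeR, and 1 had an unadjusted p under 0.05. Part-time carriers of the chain were detected in 7 of 8 cases, led by the collagen gene COL18A1 at 71.19 ± 8.90, NRP1 at 26.42 ± 4.39 and TGFBR3 at 21.94 ± 4.76 TPM. Of chondroitin sulfate enzymes, which extend the same linker in another way, 13 of 16 were detected, with CHSY1 at 38.51 ± 7.66, CHPF at 28.37 ± 4.66 and CHPF2 at 24.85 ± 1.11 TPM. Their median was 3.24 ± 0.18 log2(TPM + 1). For neither of these lists did edgeR call a gene (0 of 7 and 0 of 15 tested, with 0 at an unadjusted p under 0.05 in each). The background was 1.59% of all genes tested, so 0 called in lists this short, the 26 pathway genes included, says little.

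Of 29 FGF pathway genes 22 were detected. FGFR1 was by far the highest receptor gene at 71.23, 99.08 and 94.95 TPM in replicates 1, 2 and 3, with FGFR2 at 6.37 ± 1.70, FGFR3 at 6.05 ± 4.34 TPM and FGFR4 at 3.25, 5.95 and 5.80 TPM in replicates 1, 2 and 3. The highest list members were the feedback inhibitor SPRY2 at 100.3 ± 14.02 TPM, the FGF-induced factor ETV4 at 93.01 ± 19.14 TPM and FGFR1. FGF2, whose protein was in the medium, had 3.46 ± 1.28 TPM. FGF8 had 21.65, 3.54 and 8.21 TPM and FGF17 had 42.88, 13.85 and 15.22 TPM, both highest in replicate 1. KL and KLB, coreceptor genes of hormone-like FGF ligands, were not detected, with 1, 0 and 0 counts for KL and 18, 11 and 6 counts for KLB. Excess spread was called for 5 of 24 FGF genes (FGF8, FGF17, FGF18, FGF19 and FGFR3), beside the same background of 1.59%.

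Of 40 WNT pathway genes 33 were detected. CTNNB1, which encodes beta-catenin, had 339.4 ± 30.99 TPM, and SFRP2 and FRZB, whose secreted products bind WNT ligands, had 157.0 ± 45.64 and 124.1 ± 32.26 TPM. Excess spread was called by edgeR for 2 of 37 tested, beside 1.59% of all genes tested. These were WNT3A (edgeR adjusted p = 0.0118) and the feedback gene NKD1 (0.00873, and 0.146 with the length trend removed). Both were lowest in replicate 1.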

How the data were processed

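Polyadenylated RNA of 3 pNPC WT replicates was analysed as 1 group, from the sample titles. Libraries were made with the NEBNext Ultra II DNA kit, per the labels' protocols. Among the tools in the submitters' processing notes are RSEM 1.3.1, STAR 2.7.11a and Trim Galore 0.6.10, beside the build GRCh38, with no role or order. No source used here names an annotation release or strand setting. Per the file headers, each library has an RSEM gene table. The deposited expected count is an estimated, not normalized, number of reads. In the deposited TPM the authors' run divided by effective length, and the deposited FPKM was not used. Deposited effective lengths are in bases.

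The members and lists, and the 16 pairs, were chosen with earlier results of these data known. All members are named, and of the other lists the 3 genes of highest mean TPM (2 for cell types) and FGF2, FGF8, FGF17, the FGF receptor genes and NOTUM. Other genes named (PAX6, DPPA4, FGF18, FGF19, KL, KLB, HS3ST4, HS3ST6, C1QA, TYROBP, WNT3A and NKD1) were chosen after their values were seen. Expected counts were rounded and fitted in edgeR 4.0.16 (limma 3.58.1, R 4.3.3) with TMM scaling and filterByExpr, as an intercept-only negative binomial model. Each gene's residual deviance at the trended dispersion was referred to the chi-square distribution (2 degrees of freedom, threshold 0.05, Benjamini-Hochberg over all genes), a test also run on simulated data, where it missed most small shifts of 1 library and called some unchanged genes when dispersion varied between genes. Log2 CPM used a prior count of 2. TPM differences used a pseudocount of 1, which understates differences of low genes. The length trend was a lowess fit (span 0.3). Gene types and exon overlaps came from GENCODE release 29, and gene coordinates (1-based) and promoters from RefSeq, GRCh38.p14. Tables were summarised in Python 3.11.15 (scipy 1.17.1, pandas 2.3.3, numpy 2.4.6) and drawn in matplotlib 3.10.9. Alternatives are given with their effect in the closing section.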

Additional observations from a re-analysis of the deposited data

How the results depend on the processing

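The number of detected members was 32 under a TPM minimum of 0.5, under a mean TPM of at least 1 and without any 1 replicate, and 27 under a minimum of 5. All 16 mean pair differences kept their sign with a pseudocount of 0.1 and without any 1 replicate. In CPM, without length scaling, 4 of these means turned. GPC1 minus GPC2 became 0.24, SDC1 minus SDC3 -0.71, EXTL3 minus EXTL2 0.91, and glypicans minus syndecans -0.23. In CPM the shares also moved, to 17% for glypicans, 19.9% for syndecans, 17.7% for secreted core proteins, 4.31% for linker enzymes, 13.3% for chain polymerases, 8.03% for NDST genes, 7.92% for the epimerase and 2-O-sulfotransferase and 3.31% for 6-O-sulfotransferases, since CPM gives long transcripts more weight. Excess spread was called for 271 genes, and for 95 to 117 when 1 replicate was left out, which leaves 2 libraries. Of the members 0 or 1 was then called, 0 without replicate 1 or 2. Relative log expression (RLE) size factors, no filter on low counts, a common dispersion and removal of the length trend each called XYLT1 alone. With the length trend removed the median deviation of the members turned to 0.06 in replicate 1 and moved to 0.04 in replicate 2. No paired analysis was possible because there is only 1 group. The 6 undetected genes had at most 62 counts in a library, so their levels carry the largest relative counting error of the list. Their Poisson 95% upper limits stayed below 1 TPM, except for GPC5 in replicates 2 and 3 (1.02 and 1.46 TPM).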
